A study of Mus musculus with 18 samples.

Results

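The LPS receptor complex, its adaptors and the enzyme that inactivates LPS were examined as a set of 10 genes across all groups of bone marrow-derived macrophages (BMDMs). The genes were listed by function and not by level, but with earlier results of these data known. They were the LPS carriers and receptor (Lbp, Cd14, Ly96 and Tlr4), the adaptors (Tirap, Myd88, Ticam2 and Ticam1), the first kinase of the MyD88 branch (Irak4), and the LPS deacylase (Aoah). All 10 were among the 22852 genes in the count tables. Of these, 9 passed the expression filter and were tested with 11305 genes in all, and Lbp did not pass.

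LPS is the lipid-anchored sugar polymer of the outer membrane of Gram-negative bacteria. The carrier protein LBP hands single LPS molecules to CD14, which loads them onto MD-2 (encoded by Ly96) bound to TLR4. The receptor dimer then signals from the plasma membrane through TIRAP, MyD88 and IRAK4, and from endosomes through TRAM (Ticam2) and TRIF (Ticam1), while acyloxyacyl hydrolase (Aoah) removes fatty acids from LPS and ends its activity. Macrophages that have met LPS respond less to a later dose, a state known as endotoxin tolerance.

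BMDMs were grown from the bone marrow of female C57BL/6 mice for 7 days in medium containing L929 cell conditioned medium, and RNA-Seq was performed on 6 groups of 3 samples. Unstimulated cells received no LPS, and LPS-stimulated cells were given LPS once, at 10 ng/ml for 3 h. LPS-primed cells received LPS at 100 ng/ml for 24 h, and LPS-tolerant cells received the same priming dose and then LPS at 10 ng/ml for 3 h in fresh medium. The remaining groups were LPS-primed and LPS-tolerant cells treated with carboplatin (25 µM), a platinum drug that crosslinks DNA. Carboplatin was added 1 h before priming, and the sample labels list it together with the priming dose of LPS. Medium was replaced before the second dose, and the labels name no carboplatin with that dose. The methods call the 3 samples of each group biological replicates without saying whether each came from its own mouse, so the p-values measure the spread between these samples. RNA was taken from whole cultures, so fewer cells that express a gene and less RNA of that gene per cell cannot be told apart.

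The 18 libraries held between 6869667 and 14708099 read pairs on genes. The 7 macrophage markers (Adgre1, Csf1r, Cd68, Mertk, Fcgr1, Lyz2 and Itgam) were detected in every group. They summed to 15850 to 17781 CPM (counts scaled to the library total) in unstimulated cells, 12206 to 14628 in LPS-stimulated cells and 21905 to 30441 in the primed groups, with or without carboplatin. Markers of T cells, dendritic cells, erythroid cells and hepatocytes reached at most 1.27 CPM in sum, and those of fibroblasts reached 0.391 in unstimulated cells, 2.65 in LPS-stimulated cells and 7.85 in the primed groups. The B cell list differed between groups, with 28.7 to 168 CPM in unstimulated cells, 7.69 to 29.1 in LPS-stimulated cells and at most 1.36 in the others. Nearly all of it was Ighm, the heavy chain of IgM, whereas Ms4a1 and Cd79a had at most 2 counts in any library. The neutrophil list lay at 0.879 to 1.67 CPM in unstimulated cells, 4.39 to 12.9 in LPS-stimulated cells and 9.06 to 58.3 in the others, nearly all S100a8, which stimulated macrophages also express, and Ly6g and Mpo were at 0. The part of these markers in the results below was not tested.

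A single dose of LPS changed most genes of the receptor complex and its adaptors, in both directions. At an adjusted p under 0.05 (edgeR quasi-likelihood test, Benjamini-Hochberg adjustment), 8 of the 9 tested genes differed between LPS-stimulated and unstimulated BMDMs, where 51.2% of all tested genes did. Cd14, Myd88, Aoah, Ly96 and Ticam1 were higher (24.3% of all genes were), and Ticam2, Tlr4 and Irak4 were lower (26.9% of all genes were). Only Cd14 also passed the limit of |log2FC| over 2 used in the study, which 12% of all genes passed. The median log2FC of the 9 genes was 0.79, and that of all tested genes was -0.09.

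After 24 h of priming, fewer of these genes differed from unstimulated cells. In this comparison 4 of the 9 were called, against 25.2% of all genes, and all 4 were higher (Aoah, Cd14, Myd88 and Ly96; 12.1% of all genes were higher and 13.1% lower). Aoah and Cd14 passed the fold limit as well, which 7.47% of all genes did. The median log2FC of the 9 genes was 0.42, where that of all genes was -0.02. The plot of changes by comparison shows the wide separation of Aoah from the other genes in the primed cells.

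**Figure D1:**
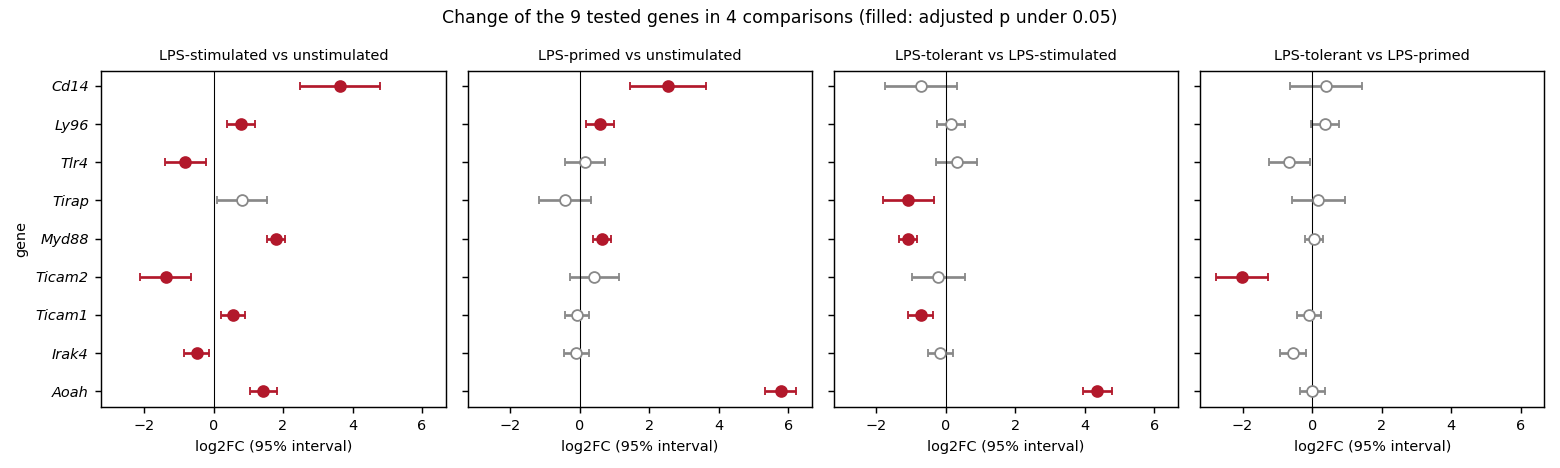
Log2FC (horizontal axis) of the 9 tested genes in 4 comparisons, with 95% intervals from the edgeR fit and n = 3 samples per group; filled points passed an adjusted p under 0.05. Aoah stands at 5.78 in LPS-primed and 1.44 in LPS-stimulated cells against unstimulated cells, Cd14 at 2.53 and 3.64, and Ticam2 is the only filled point between LPS-tolerant and LPS-primed cells, at -2.02.

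LPS-tolerant and LPS-stimulated cells both ended with 3 h of LPS at 10 ng/ml and differed in the earlier priming. Between them 4 of the 9 genes were called, against 34.5% of all genes. Aoah was higher in LPS-tolerant cells (16.2% of all genes were), and Myd88, Tirap and Ticam1 were lower (18.3% were). Aoah passed the fold limit, as did 8.04% of all genes. LPS-tolerant and LPS-primed cells differ by the second dose, the change of medium and the added 3 h of culture. Between them only Ticam2 was called, and it was lower. In that comparison 6.31% of all genes were called, 3.6% higher and 2.71% lower, and Ticam2 was among the 0.681% that passed the fold limit. With the replicate number as a block, the same comparison called 3 of the 9 genes, all lower, and Tlr4 and Irak4 joined Ticam2. The block called 18% of all genes there, and 8.32% as lower.

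The higher and lower shares depend on scaling. With library size alone in place of TMM normalisation, the median log2FC of all genes moved to -0.43 in LPS-stimulated and -0.26 in LPS-primed cells against unstimulated cells. The split then became 1847 higher and 4636 lower genes in place of 2749 and 3040, and 932 and 2598 in place of 1370 and 1477. Between LPS-tolerant and LPS-primed cells it became 296 and 476 in place of 407 and 306, and for carboplatin in LPS-tolerant cells 38 and 111 in place of 27 and 160.

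**Figure D2:**
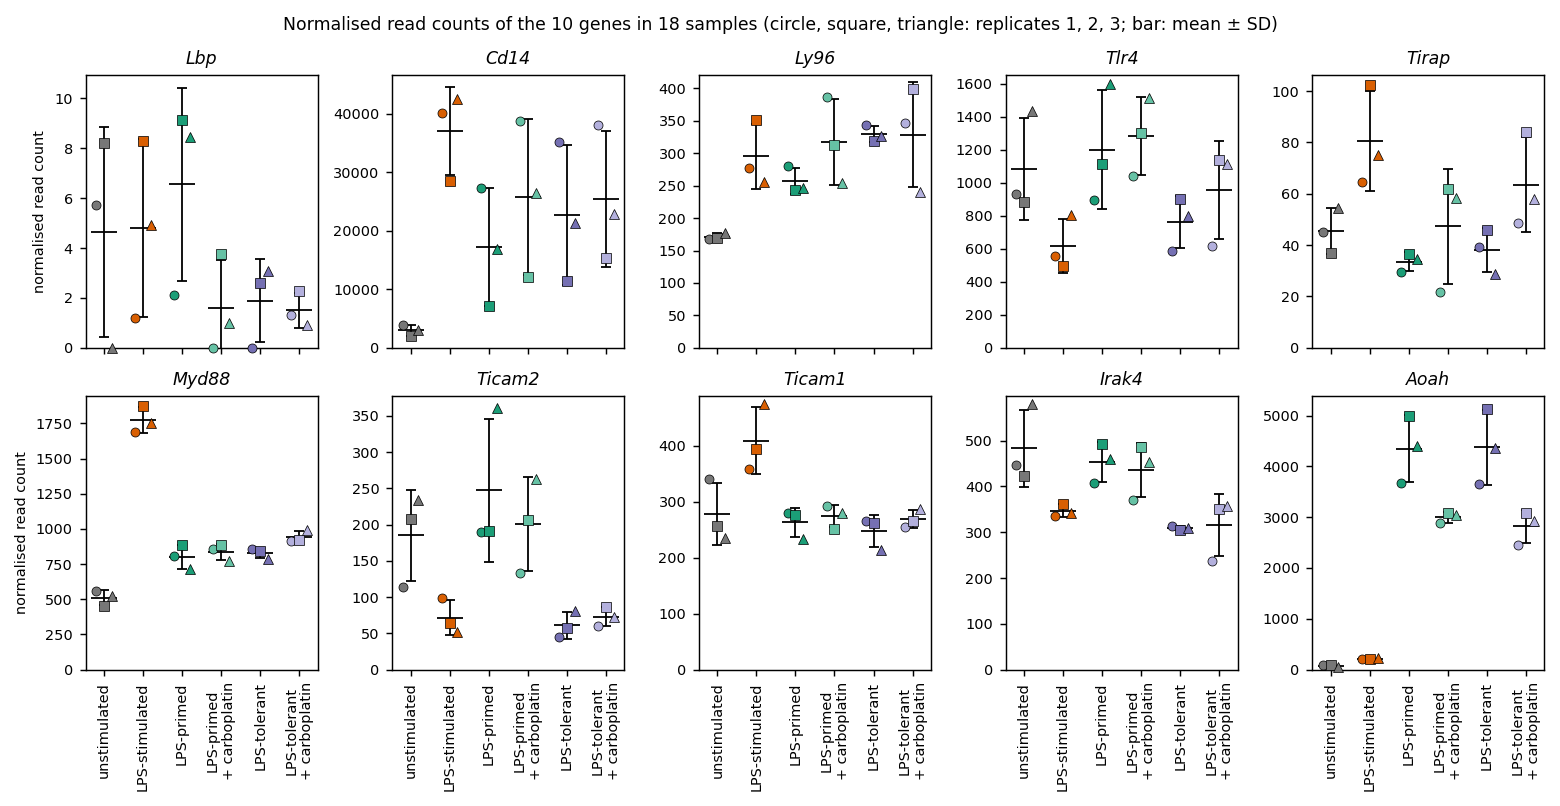
Normalised read counts (vertical axes, starting at 0) of the 10 genes in the 18 samples, by group; circles, squares and triangles are replicates 1, 2 and 3, and bars give the mean ± SD. Aoah lies between 57.3 and 224 in all samples without priming and between 2453 and 5127 in all primed samples, and Myd88 reaches 1688 or more only in the LPS-stimulated group.

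Lbp, the serum carrier that liver cells secrete during the acute phase, was barely detected. Raw counts lay between 0 and 12 in the 18 samples, and 0 was seen in 1 unstimulated, 1 LPS-primed with carboplatin and 1 LPS-tolerant sample. Each of the 6 groups held a sample with 2 counts or fewer, and no group stood apart. No difference of Lbp was detectable at this depth.

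Cd14, the co-receptor that delivers LPS to the receptor complex, had the highest count of the set. Unstimulated samples held normalised read counts of 3851, 1961 and 3094, LPS-stimulated samples 40070, 28437 and 42598, and LPS-primed samples 27385, 7200 and 16923. LPS-tolerant samples held 35262, 11412 and 21260. All LPS-treated samples lay above all unstimulated ones, while the LPS-primed, LPS-tolerant and both carboplatin groups overlapped widely, and replicate 2 was the lowest in each of the 6 groups. The increase was 12.5-fold after a single dose (log2FC 3.64, SE 0.54, adjusted p = 3.34e-05) and 5.78-fold after priming (log2FC 2.53, SE 0.52, adjusted p = 0.00149). LPS-tolerant against LPS-stimulated cells gave a log2FC of -0.71 (SE 0.49, adjusted p = 0.287). Cd14 was lower in 3 of 3 replicate pairs there, and the replicate block gave -0.87 on the log2 scale (SE 0.19, adjusted p = 9.475e-04).

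Ly96 encodes MD-2, the subunit that binds the lipid part of LPS. Unstimulated samples held 168, 169 and 177 normalised reads, compared with 278, 351 and 256 in LPS-stimulated samples and 280, 244 and 247 in LPS-primed samples. Neither LPS group overlapped the unstimulated group, and the changes were small. The gene rose 1.72-fold after a single dose (log2FC 0.79, SE 0.19, adjusted p = 0.00279) and 1.5-fold after priming (log2FC 0.58, SE 0.19, adjusted p = 0.0345). The call after priming was lost when any 1 of the 6 libraries was left out (adjusted p between 0.0548 without LPS-primed replicate 2 and 0.11 without LPS-primed replicate 1) and with library size alone (adjusted p = 0.175). LPS-tolerant samples held 343, 319 and 326, above every LPS-primed sample, but the difference was not called (log2FC 0.36, SE 0.19, adjusted p = 0.304).

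Tlr4, the signalling receptor, moved against its partners after a single dose. Its normalised read counts were 935, 881 and 1437 in unstimulated samples and 555, 493 and 804 in LPS-stimulated samples. The groups did not overlap, and Tlr4 fell by 0.81 on the log2 scale (SE 0.28, adjusted p = 0.0231). That call rested on single libraries, since adjusted p was 0.145 without unstimulated replicate 3, 0.0678 without LPS-stimulated replicate 1 and 0.0996 without LPS-stimulated replicate 2. LPS-primed samples held 894, 1112 and 1600, which overlapped the unstimulated group (log2FC 0.15, SE 0.28, adjusted p = 0.752). LPS-tolerant samples held 589, 903 and 798, lower than their LPS-primed partners in 3 of 3 pairs. Tlr4 stood at -0.65 on the log2 scale (SE 0.28, adjusted p = 0.186). The replicate block gave -0.62 (SE 0.17, adjusted p = 0.0154).

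Counts of Cd14 relative to Tlr4 in the same sample were higher in all LPS groups than in unstimulated cells. In unstimulated samples there were 2.15 to 4.12 Cd14 reads per Tlr4 read, and in LPS-stimulated samples 52.9 to 72.2. LPS-primed samples lay between these, from 6.48 to 30.6, and LPS-tolerant samples ran from 12.6 to 59.9. The Ly96 to Tlr4 ratio was 0.123 to 0.192 in unstimulated and 0.319 to 0.712 in LPS-stimulated samples, which did not overlap. It was 0.154 to 0.314 in LPS-primed samples, which overlapped the unstimulated group, and 0.353 to 0.583 in LPS-tolerant samples, which did not. These are ratios of reads, not of molecules, because the genes differ in length.

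Tirap, which brings MyD88 to the receptor at the plasma membrane, had the lowest counts of the tested genes in unstimulated cells. Normalised read counts were 44.9, 36.9 and 54.5 in unstimulated samples and 64.4, 102 and 74.9 in LPS-stimulated samples. The groups did not overlap, yet the log2FC of 0.83 (SE 0.34) stood at the threshold (adjusted p = 0.0501). It passed in 7 of 15 other settings and did not pass in 8. These 7 were the blocked fit (log2FC 0.79, adjusted p = 0.025), DESeq2 (adjusted p = 0.0309), limma-voom (adjusted p = 0.0286), DESeq2 size factors (adjusted p = 0.0416) and only the groups compared (adjusted p = 0.0393). The rest were the fits without unstimulated replicate 3 (adjusted p = 0.0469) and without LPS-stimulated replicate 1 (adjusted p = 0.0385). LPS-tolerant samples held 39.3, 45.8 and 28.8, below all LPS-stimulated samples (log2FC -1.09, SE 0.35, adjusted p = 0.0218). That call was lost without LPS-tolerant replicate 3 (adjusted p = 0.0937) or LPS-stimulated replicate 2 (adjusted p = 0.106).

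Myd88, the adaptor shared by most Toll-like receptors and the IL-1 receptor family, separated the LPS-stimulated group from all others. Normalised read counts were 561, 451 and 524 in unstimulated samples, 1688, 1871 and 1754 in LPS-stimulated samples, 806, 885 and 714 in LPS-primed samples, and 855, 839 and 789 in LPS-tolerant samples. Each LPS group lay above the unstimulated group, and the LPS-primed and LPS-tolerant groups overlapped. The gene rose 3.46-fold after a single dose (log2FC 1.79, SE 0.12, adjusted p = 6.17e-09) and 1.57-fold after priming (log2FC 0.65, SE 0.12, adjusted p = 7.61e-04). LPS-tolerant cells held 2.14-fold less than LPS-stimulated cells (log2FC -1.10, SE 0.12, adjusted p = 3.19e-06) and differed little from LPS-primed cells (log2FC 0.05, 95% interval -0.21 to 0.30). None of these calls was lost under the other settings, apart from the fold limit, or when a library was left out.

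The 250 bases before the RefSeq start of Myd88 are shown because Myd88 was the adaptor with the largest rise. They lie at chr9:119340019-119340268 on the minus strand of GRCm38.p6, and the capitals mark the only match to 5 motifs searched on both strands, GAAANNGAAA, the core of the interferon-stimulated response element, starting 40 bases upstream.
Myd88: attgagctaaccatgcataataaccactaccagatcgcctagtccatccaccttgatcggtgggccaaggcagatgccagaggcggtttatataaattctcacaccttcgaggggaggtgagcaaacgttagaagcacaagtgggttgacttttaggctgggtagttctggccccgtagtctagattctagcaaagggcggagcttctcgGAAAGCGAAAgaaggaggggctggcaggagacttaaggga
This motif was present in 2.98% of the 32851 promoter windows of the table. The other motifs were the NF-kB site (3.9% of windows), the AP-1 site TGANTCA (6.75%), the PU.1 site GAGGAA (23.3%) and the cAMP response element TGACGTCA (1.55%). Letters in a window do not show that a factor bound there.

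Ticam2 encodes TRAM, the bridge between TLR4 and TRIF in endosomes. It was lower after LPS at 10 ng/ml whether or not the cells had been primed. In primed cells that dose came with a change of medium and an added 3 h of culture, and these cannot be told apart. Normalised read counts were 114, 208 and 234 in unstimulated samples and 99.0, 63.7 and 52.3 in LPS-stimulated samples. LPS-primed samples held 189, 191 and 361, and LPS-tolerant samples 44.3, 57.9 and 80.3. The cells that had just received 10 ng/ml lay below their partners without it in both settings with no overlap, and the unstimulated and LPS-primed groups overlapped. The decrease was 2.60-fold in the first setting (log2FC -1.38, SE 0.35, adjusted p = 0.00359) and 4.05-fold in the second (log2FC -2.02, SE 0.36, adjusted p = 0.00263). The 2 decreases were not shown to differ (difference of log2FC -0.64, 95% interval -1.68 to 0.40, adjusted p = 0.393).

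The count of Ticam2 is uncertain, because the annotated gene lies wholly within Tmed7 on the same strand and the 2 share 3782 exon bases. Reads in shared exons are counted for neither gene in the default mode of HTSeq, and the mode used is not given in the sources used here. Tmed7, a cargo receptor that carries TLR4 to the cell surface, had a log2FC of 0.38 (SE 0.27, adjusted p = 0.265) after a single dose and -0.14 (SE 0.27, adjusted p = 0.835) between LPS-tolerant and LPS-primed cells. The blocked fit called the former (log2FC 0.37, SE 0.10, adjusted p = 0.00457), and did not call the latter (log2FC -0.12, adjusted p = 0.456).

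Ticam1 encodes TRIF, the adaptor that leads to type I interferon. Counts after normalisation were 341, 257 and 235 in unstimulated samples and 358, 394 and 475 in LPS-stimulated samples. The groups came close without overlap, and the rise was 1.47-fold (log2FC 0.56, SE 0.17, adjusted p = 0.0101). That call was lost without LPS-stimulated replicate 3 (adjusted p = 0.0589) and with library size alone (adjusted p = 0.252). LPS-primed samples (280, 276 and 233) overlapped the unstimulated group, and LPS-tolerant samples (265, 263 and 214) lay below every LPS-stimulated sample (log2FC -0.73, SE 0.17, adjusted p = 0.00273). Reads of Ticam1 per read of Myd88 ran from 0.449 to 0.608 in unstimulated samples and from 0.210 to 0.271 in LPS-stimulated samples.

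Ticam1 has a PU.1 site in the same kind of window, marked in capitals and starting 30 bases upstream. The window is shown beside that of Myd88 because both adaptors were called higher after a single dose, as Tirap was not. The PU.1 letters are common, at 23.3% of all windows, and a part of the site in the rise was not tested. The window lies at chr17:56276768-56277017 on the minus strand of GRCm38.p6 in RefSeq.
Ticam1: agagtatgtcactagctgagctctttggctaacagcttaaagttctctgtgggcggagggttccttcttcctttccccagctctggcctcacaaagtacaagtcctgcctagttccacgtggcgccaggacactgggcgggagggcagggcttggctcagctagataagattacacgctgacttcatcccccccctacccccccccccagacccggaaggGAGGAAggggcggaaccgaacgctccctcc

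Irak4, the kinase that MyD88 recruits first, varied least of the tested genes, with a 1.56-fold span between its highest and lowest group means. Normalised read counts were 447, 424 and 580 in unstimulated samples, 336, 363 and 342 in LPS-stimulated samples, 407, 492 and 460 in LPS-primed samples and 314, 305 and 310 in LPS-tolerant samples. Both groups that had just received 10 ng/ml lay below their partners without overlap. The log2FC was -0.48 after a single dose (SE 0.17, adjusted p = 0.0267) and -0.55 in LPS-tolerant against LPS-primed cells (SE 0.17, adjusted p = 0.0658). The blocked fit called the latter (log2FC -0.55, SE 0.14, adjusted p = 0.0119). The former was lost without unstimulated replicate 3 (adjusted p = 0.173), LPS-stimulated replicate 1 (adjusted p = 0.0617) or LPS-stimulated replicate 3 (adjusted p = 0.0699), and with only the groups compared in the fit (adjusted p = 0.109).

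Aoah, the enzyme that deacylates LPS, had the largest range of the set, 55.5-fold between its highest and lowest group means. Normalised read counts were 96.5, 82.8 and 57.3 in unstimulated samples and 210, 207 and 224 in LPS-stimulated samples. They were 3664, 4984 and 4408 in LPS-primed samples and 3649, 5127 and 4362 in LPS-tolerant samples. The unstimulated, LPS-stimulated and primed samples formed 3 separate levels, and the LPS-primed and LPS-tolerant groups coincided. The gene rose 2.71-fold after a single dose (log2FC 1.44, SE 0.19, adjusted p = 7.38e-06) and 55.1-fold after priming (log2FC 5.78, SE 0.21, adjusted p = 5.39e-12). LPS-tolerant cells held 20.5-fold more than LPS-stimulated cells (log2FC 4.36, SE 0.20, adjusted p = 1.11e-10). Against LPS-primed cells the log2FC was 0.01 (95% interval -0.35 to 0.37). Dose and duration of priming (100 ng/ml, 24 h) both differed from the single dose (10 ng/ml, 3 h) and cannot be told apart.

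The window before the RefSeq start of Aoah is shown because no other gene of the set rose as far. It lies at chr13:20793863-20794112 on the plus strand of GRCm38.p6 and held none of the 5 motifs, which says only that these letters were not in these 250 bases.
Aoah: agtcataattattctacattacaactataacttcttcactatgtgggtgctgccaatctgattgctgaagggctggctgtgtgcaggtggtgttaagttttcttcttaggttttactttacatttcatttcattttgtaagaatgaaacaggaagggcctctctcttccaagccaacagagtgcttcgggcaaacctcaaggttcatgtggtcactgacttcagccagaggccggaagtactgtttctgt
Windows were found for 5 of the 10 genes, and those of Tirap and Irak4 held no match either. Tlr4, Cd14, Ly96, Lbp and Ticam2 were not matched.

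Whether the cells responded differently to 10 ng/ml after priming was tested as the difference between the second response (LPS-tolerant minus LPS-primed) and the first (LPS-stimulated minus unstimulated). The second response includes the change of medium and the added 3 h of culture, which cannot be told apart from the dose. Cd14, Myd88 and Aoah responded less to the second dose, so 3 of the 9 genes were called. In all, 23.8% of tested genes were called and 13.3% were called with a lower second response. The difference was -3.24 for Cd14 (log2 scale, SE 0.71, adjusted p = 0.00287), -1.74 for Myd88 (SE 0.17, adjusted p = 1.27e-06) and -1.43 for Aoah (SE 0.25, adjusted p = 4.46e-04). The second response itself passed no test for these 3 genes, at 0.40 (SE 0.49), 0.05 (SE 0.12) and 0.01 (SE 0.17). All 3 were already higher in LPS-primed than in unstimulated cells.

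Ticam1 gave a difference of -0.65 (SE 0.24, adjusted p = 0.0572), which the blocked fit called (-0.66, SE 0.22, adjusted p = 0.0267). It was called as well with DESeq2 (adjusted p = 0.0308) and limma-voom (adjusted p = 0.0478). The same held without unstimulated replicate 1 (adjusted p = 0.0164) or LPS-stimulated replicate 1 (adjusted p = 0.0352). It was not called in 16 of 21 other settings. For Tlr4 and Irak4, which fell after the first dose as Ticam2 did, the intervals of the difference were wide and held 0, at 0.16 for Tlr4 (95% interval -0.68 to 0.99) and -0.07 for Irak4 (95% interval -0.58 to 0.44). In the plot of first against second responses Tlr4 and Irak4 lie near the line of equal change, Ticam2 lies below it, and Cd14, Myd88 and Aoah lie close to the horizontal axis. Ly96 lies between the axis and the line, with a difference of -0.43 (SE 0.27, adjusted p = 0.289). With library size alone, the called genes of the series split into 1862 with a higher and 1078 with a lower second response, in place of 1190 and 1501.

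**Figure D3:**
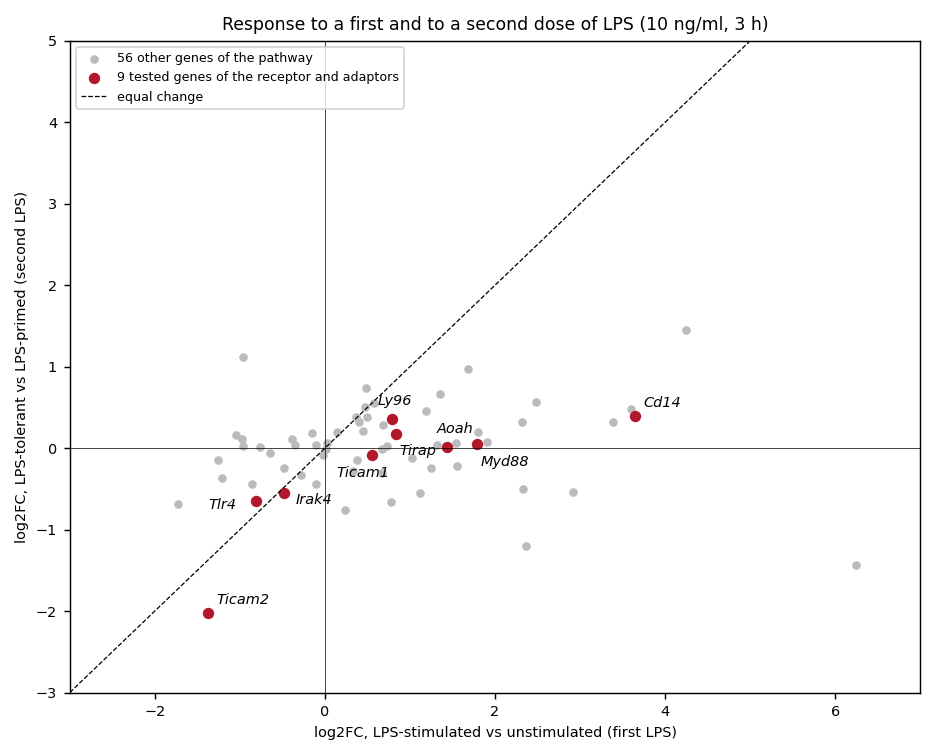
Log2FC after the first dose (horizontal axis, LPS-stimulated vs unstimulated) and after the second dose (vertical axis, LPS-tolerant vs LPS-primed) for the 9 tested genes (red points) and 56 other genes of the pathway (grey points); the dashed line marks equal change. Cd14 stands at 3.64 and 0.40, Myd88 at 1.79 and 0.05, and Ticam2 at -1.38 and -2.02.

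Aoah was lower with carboplatin, and no receptor or adaptor gene passed the test without the replicate block. With carboplatin, LPS-primed samples held normalised Aoah counts of 2879, 3078 and 3046, and LPS-tolerant samples 2453, 3081 and 2930. Every sample with carboplatin lay below every sample without it in both states. In LPS-tolerant cells the log2FC was -0.63 (SE 0.17, adjusted p = 0.149). This passed the limit of 0.25 on adjusted p that the study set for carboplatin, but not its added limit of |log2FC| over 2. In LPS-primed cells the log2FC was -0.54 (SE 0.17, adjusted p = 0.341), which passed neither limit. Adjusted p there was 0.0612 in the blocked fit and 0.219 without LPS-primed replicate 1. Thus, without the block, 0 of the 9 genes were called in LPS-primed cells (1.2% of all genes were) and 1 in LPS-tolerant cells (1.65% were). The block called 2 (Aoah and Cd14) and 1 (Aoah), where it called 7.87% and 6.93% of all genes. At an unadjusted p under 0.05 without the block, the numbers were 1 and 2 (6.86% and 6.73% of all genes passed). DESeq2 called 1 (Aoah) in LPS-primed cells, among 300 genes in all, and limma-voom called 0.

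The call in LPS-tolerant cells held with the replicate block (log2FC -0.63, SE 0.14, adjusted p = 0.023) and depended on single libraries without it. Adjusted p rose to 0.674 without LPS-tolerant replicate 2, 0.352 without LPS-tolerant replicate 3, 0.581, 0.305 and 0.288 without LPS-tolerant with carboplatin replicates 1, 2 and 3, 0.337 with only the groups compared and 0.293 with library size alone. When the effect was averaged over both LPS states, an analysis chosen after seeing the data, Aoah fell by 0.59 on the log2 scale (SE 0.12, adjusted p = 0.0134), and it was the only 1 of the 9 genes called where 5.95% of all genes were. The carboplatin effects in the 2 states were not shown to differ for any of the 9 genes. Over all genes, 0% were called (131 at an unadjusted p under 0.05, and 0 with DESeq2 and limma-voom), and the difference for Aoah was -0.10 (95% interval -0.60 to 0.41).

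Aoah spans 242.5 kb, and long genes were lower with carboplatin across the whole series. Among the 410 tested genes of 200 kb or more, the median log2FC with carboplatin was -0.62 in LPS-primed and -0.69 in LPS-tolerant cells. Among the 4562 genes under 20 kb the medians were 0.04 and 0.06. Aoah at -0.54 and -0.63 was thus less lowered than the median gene of its span class, in which 237 and 222 genes had a lower log2FC. Tlr4, at 104.2 kb the next longest of the set, had log2FC of 0.10 (SE 0.28) and 0.33 (SE 0.28), where the medians of genes between 100 and 200 kb were -0.14 and -0.19. The part of gene span in the change of Aoah was not tested.

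**Figure D4:**
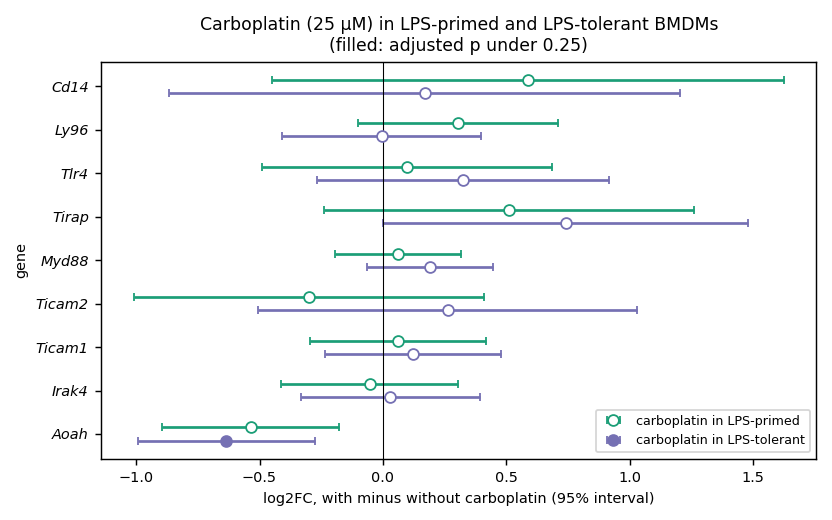
Log2FC with minus without carboplatin (horizontal axis, 95% intervals, n = 3 samples per group) for the 9 tested genes in LPS-primed and LPS-tolerant BMDMs; filled points passed an adjusted p under 0.25. Aoah is the only gene whose interval lies below 0 in both states, at -0.54 and -0.63.

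Of the other genes, Tirap had log2FC of 0.51 (SE 0.36, adjusted p = 0.901) and 0.74 (SE 0.35, adjusted p = 0.738) with carboplatin. Averaged over both states it stood at 0.63 (SE 0.25, adjusted p = 0.299), and the replicate block brought it under the limit of 0.25 at 0.60 (SE 0.22). In LPS-tolerant cells all samples of Tirap and of Myd88 with carboplatin lay above those without it, and neither was called. The shares of all genes separated in this way, or higher in 3 of 3 pairs, were not counted. Cd14 was higher with carboplatin in 3 of 3 pairs in both states, at 0.59 (SE 0.49, adjusted p = 0.938) in LPS-primed cells and 0.17 (SE 0.49, adjusted p = 1) in LPS-tolerant cells. With the replicate block the former was 0.62 (SE 0.19, adjusted p = 0.113), under the limit of 0.25, and the mean of both states was 0.42 (adjusted p = 0.0718). The block called 7.87% of all genes in LPS-primed cells. Its share of all genes for the mean of both states, where Tirap and Cd14 passed, was not counted. For Myd88 the 95% intervals were -0.20 to 0.32 and -0.07 to 0.45, and for Ticam1 -0.29 to 0.42 and -0.23 to 0.48.

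Other genes of the pathway were taken from a list of 60 in 6 groups, of which 56 passed the filter (Sarm1, Bpi, Alpl and Ces1d did not). The list was made with earlier results of these data known. After a single dose 37 of 56 were called, 27 higher and 10 lower, with a median log2FC of 0.48, where 51.2% of all genes were called (24.3% higher and 26.9% lower) with a median of -0.09. All 5 genes of cytosolic LPS sensing rose, among them Gbp5, an interferon-induced GTPase that coats bacteria (log2FC 6.25, SE 0.50, adjusted p = 3.11e-08), and the inflammasome sensor Nlrp3 (4.24, SE 0.19). Of 16 kinases and ubiquitin ligases of the MyD88 branch 8 rose and 3 fell, with Peli1 at 2.48 (SE 0.38), Irak2 at 1.68 (SE 0.17) and Tab1 at -1.73 (SE 0.30). Of 10 genes of the TRIF branch 7 rose and 1 fell, with Birc3 at 2.92 (SE 0.15) and Ikbke at 2.32 (SE 0.19). Chaperones and traffic genes split into 4 higher and 4 lower of 11, with the kinase Syk at 1.55 (SE 0.15) and the TLR chaperone Cnpy4 at -1.21 (SE 0.20).

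**Figure D5:**
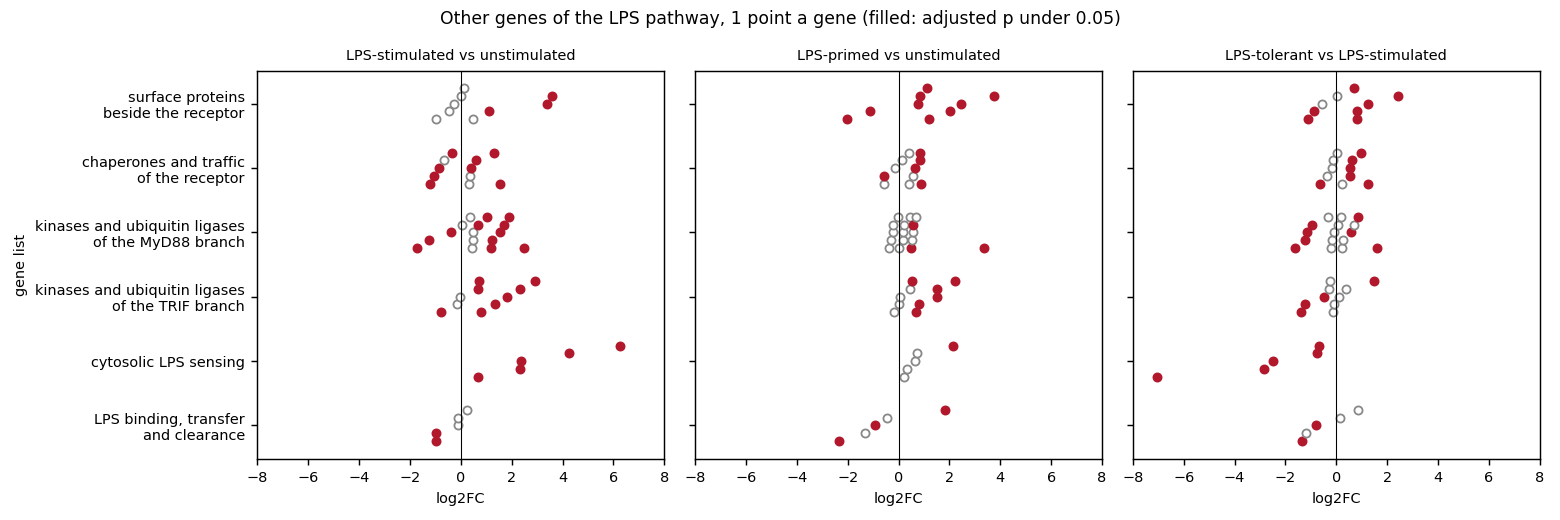
Log2FC (horizontal axis) of 56 genes of the LPS pathway by list in 3 comparisons, 1 point a gene; filled points passed an adjusted p under 0.05. The 5 genes of cytosolic LPS sensing are all above 0 after a single dose and all below 0 in LPS-tolerant against LPS-stimulated cells, down to -7.04 for Gbp5.

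In LPS-primed cells 27 of 56 were called, 22 higher and 5 lower, with a median log2FC of 0.47, where 25.2% of all genes were called (12.1% higher and 13.1% lower) with a median of -0.02. Surface proteins were all called, 7 of 9 higher and 2 lower, with the scavenger receptor Msr1 at 3.76 (SE 0.25), the integrin Itgam at 2.47 (SE 0.20), Tlr2 at 2.01 (SE 0.24) and the TLR4 homologue Cd180 at -2.04 (SE 0.44). The blocked fit called 38 of 56 and 38.6% of all genes. Irak3, a kinase-dead brake on the MyD88 branch, stood at 3.37 (SE 0.19), and Lipa, the lysosomal acid lipase, at -2.35 (SE 0.31). LPS binding, transfer and clearance genes, the list nearest in role to Aoah, had 1 higher (Abca1, 1.84, SE 0.46) and 2 lower of 5 tested, and 1 and 4 in the blocked fit.

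Between LPS-tolerant and LPS-stimulated cells 31 of 56 were called, 14 higher and 17 lower, with a median log2FC of -0.11, where 34.5% of all genes were called (16.2% higher and 18.3% lower). All 5 cytosolic sensing genes were lower, with Casp4, the LPS-binding caspase, at -2.83 (SE 0.32). Itgam (2.44, SE 0.20) and Irak3 (1.60, SE 0.18) were higher, as Aoah was. Between LPS-tolerant and LPS-primed cells 6 of 56 were called, 4 higher and 2 lower, where 6.31% of all genes were, with Nlrp3 at 1.45 (SE 0.17) and Irak2 at 0.97 (SE 0.17). That count ranged from 2 to 5 when a library was left out, with 3 in a fit of only the 2 groups and 14 in the blocked fit, which called 18% of all genes.

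In the test of second against first response 27 of 56 were called, 21 with a lower and 6 with a higher second response, where 23.8% of all genes were called and 13.3% were lower. Gbp5 (-7.68, SE 0.66), Birc3 (-3.45, SE 0.21), Tlr2 (-3.12, SE 0.33) and Irak3 (-1.77, SE 0.25) were lower, and Plcg2 (1.21, SE 0.21) and Scarb1 (1.08, SE 0.24) were higher. Carboplatin called 0 of 56 in either state, where 1.2% and 1.65% of all genes were called. At an unadjusted p under 0.05 the numbers were 2 and 1, where 6.86% and 6.73% of all genes passed. They were 5 and 4 with the replicate block, which called 7.87% and 6.93% of all genes. DESeq2 called 0 in LPS-primed and 1 in LPS-tolerant cells, and limma-voom 0 in both.

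Levels of different genes were compared per kb of exon, as CPM per kb. In unstimulated cells Cd14 was far above the rest at 184 ± 59 (SD, n = 3). Tlr4 (16.6 ± 4.7), Ly96 (14.9 ± 0.437) and Myd88 (14.2 ± 1.55) came next and overlapped, as did Ticam1 (9.97 ± 2.01) and Irak4 (8.25 ± 1.44) with each other. Ticam2 (3.44 ± 1.17), Aoah (1.17 ± 0.295) and Tirap (0.721 ± 0.140) followed, and Lbp was at 0.103 ± 0.0929. The level of Ticam2 was taken over all its exons, of which 3782 bases are shared with Tmed7. Reads there may not have been counted, so its rank is uncertain. In LPS-primed cells Aoah (64.5 ± 9.81) stood next below Cd14 (1065 ± 626) and above Ly96 (22.3 ± 1.77), Myd88 (22.2 ± 2.37) and Tlr4 (18.4 ± 5.54), whose ranges overlapped. In LPS-stimulated cells Myd88 (48.9 ± 2.57) took that place.

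Genes whose levels followed those of the set most closely over the 18 samples were found for the 6 genes with at least a 2-fold span between group means. This is a description over samples that share treatments, given as Pearson's r of log2 CPM without a test. Cd14 was followed by Alas1 (r = 0.99), Srgn (0.97) and Il1a (0.97), and Myd88 by Stx11, Nfkb2 and Junb (all 0.98 when rounded). Aoah was followed by Pgk1 (0.99), Klra2 (0.99) and Serpinb8 (0.98). The closest genes were less alike for Tlr4 (Ccni, 0.92), Ticam2 (Rtl5, 0.91) and Tirap (Usp27x, 0.89).

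Positions were taken from GENCODE vM39 on GRCm39, the build of the alignments. Tlr4 (ENSMUSG00000039005) lies at chr4:66745783-66849936, Ly96 (ENSMUSG00000025779) at chr1:16758275-16779961 and Lbp (ENSMUSG00000016024) at chr2:158148409-158174800, all on the plus strand. Myd88 (ENSMUSG00000032508) lies at chr9:119165000-119170486 and Tirap (ENSMUSG00000032041) at chr9:35095542-35111654, both on the minus strand. Irak4 (ENSMUSG00000059883) lies at chr15:94441161-94479696 and Aoah (ENSMUSG00000021322) at chr13:20978283-21220787 on the plus strand, and Ticam1 (ENSMUSG00000047123) at chr17:56576319-56583786 on the minus strand.

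Several of these genes share exon bases with a gene on the opposite strand, namely Myd88 with Acaa1a (628 bases), Irak4 with Twf1 (647) and Pus7l (341), Tirap with Gm39318 (446) and Srpra (39), and Tlr4 with Gm69151 (235). The library kit marks strand, and the strand option of the counting is not given in the sources used here. Counts of these genes may thus hold reads of the partner.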

How the data were processed

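RNA-Seq counts of 18 BMDM libraries in 6 groups of 3 were used. Per the methods, the authors sequenced libraries of the TruSeq stranded mRNA kit as paired 150-base reads, aligned them to GRCm39 with HISAT2 and counted read pairs per gene with HTSeq-count, and the deposited tables hold these raw counts. Tool versions and the strand option of the counting are not given in the sources used here. Summary rows that name no gene (41.5% to 46.9% of pairs) were left out, which left 6869667 to 14708099 pairs per library.

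Genes were filtered with filterByExpr (minimum count 10, total 15), scaled by TMM and fitted in 1 model of all 18 samples by the quasi-likelihood F test of edgeR 4.0.16 in R 4.3.3, with Benjamini-Hochberg adjustment over 11305 genes. Adjusted p-values in the text are from this test unless another tool is named. The SE of a log2FC is its size divided by the square root of F. Limits on adjusted p were 0.05 for LPS and 0.25 for carboplatin, and |log2FC| over 2 was added where stated. Normalised read counts are counts divided by the effective library size and multiplied by the mean effective library size. Overlap of groups and the direction of pairs are described for single genes, and the share of all genes with such separation was not counted. The fit was tested on simulated data.

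The members and lists were chosen with earlier results of these data known. All 10 genes are described, and in each pathway list and comparison examples were taken from the 4 called genes with the largest |log2FC|. The 3 most correlated genes were listed, by Pearson's r of log2 CPM, for genes of the set with at least 2-fold between group means, leaving out predicted (Gm and Rik) genes. The mean of both carboplatin effects and the medians by gene span (11002 of 11305 genes had 1 span) were chosen after seeing the data. Comparisons share samples: unstimulated, LPS-stimulated, LPS-primed and LPS-tolerant cells each enter several.

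Replicate numbers come from the sample labels. Deviations from group means of same-numbered samples correlated over 0.1 in all 3 pairs for 14 of 15 group pairs (mean 0.35). The exception, with a lowest correlation of 0.0631, was LPS-stimulated with LPS-primed, which were not compared directly. The numbers were therefore taken to pair samples, and a fit with the replicate block was made beside the unblocked one. Other alternatives were DESeq2 size factors, library size alone, no filter or a stricter one, only the groups compared, limma-voom (limma 3.58.1), DESeq2 1.42.0, a prior count of 2, other call limits, and each library left out.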

Additional observations from a re-analysis of the deposited data

Results flagged for a closer look

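For 3 genes the response to 10 ng/ml LPS differed with priming by a test of the difference itself (LPS-tolerant minus LPS-primed, against LPS-stimulated minus unstimulated, edgeR). The second dose came with a change of medium and an added 3 h of culture, which cannot be told apart from the dose. The difference on the log2 scale was -1.43 for Aoah (adjusted p = 4.46e-04), -3.24 for Cd14 (adjusted p = 0.00287) and -1.74 for Myd88 (adjusted p = 1.27e-06). No sample was tested for standing apart, since each group held 3 samples.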

How the results depend on the processing

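The calls of Myd88, Cd14, Aoah and Ticam2 after LPS held under all settings tried other than the added fold limit, and those of Ly96, Tlr4, Irak4, Ticam1 and Tirap that rested on 1 library are given above. Counts are given below for the set, the pathway list and all genes in that order where 3 stand together, and the cause of the moves was not tested. With library size alone the set had 2 calls between LPS-tolerant and LPS-primed cells and 0 for carboplatin in LPS-tolerant cells. Values that passed no test then changed sign, at -0.088 for Tlr4 after priming, -0.054 for Myd88 and -0.088 for Aoah between LPS-tolerant and LPS-primed cells, 0.057 for Ly96 with carboplatin in LPS-tolerant cells and 0.17 for Irak4 in the second minus the first response. With only the groups compared, LPS-tolerant against LPS-primed cells gave 3 pathway genes and 454 genes, and carboplatin in LPS-tolerant cells gave 0 of the set and 82 genes. Limma-voom gave 104 genes for the latter. DESeq2 gave 2, 10 and 1116 between LPS-tolerant and LPS-primed cells, 1 of the set and 300 genes for carboplatin in LPS-primed cells, and 1 pathway gene and 306 genes in LPS-tolerant cells. With the replicate block, 4367 genes were called after priming, 3, 14 and 2034 between LPS-tolerant and LPS-primed cells, 2, 5 and 890 for carboplatin in LPS-primed cells, 4 pathway genes and 784 genes in LPS-tolerant cells, and 4091 genes in the second minus the first response. Beyond the calls of the set named above, the block changed no other call of the set. At an adjusted p under 0.05, carboplatin called 42 genes in LPS-primed cells, and 0 of the set and 48 genes in LPS-tolerant cells. Adding |log2FC| over 2 left 1, 9 and 1352 after a single dose, 2, 8 and 845 after priming, 1, 4 and 909 between LPS-tolerant and LPS-stimulated cells, and 1, 8 and 905 in the second minus the first response. It left 0 pathway genes and 77 genes between LPS-tolerant and LPS-primed cells, 30 genes for carboplatin in LPS-primed cells, and 0 of the set and 44 genes in LPS-tolerant cells.

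With 1 library left out, the counts of all genes ran from 330 to 506 between LPS-tolerant and LPS-primed cells, 45 to 152 for carboplatin in LPS-primed cells and 61 to 231 in LPS-tolerant cells. The set had 0 to 1 calls for carboplatin in either state, and the pathway list 2 to 5 between LPS-tolerant and LPS-primed cells. Log2FC values that passed no test crossed 0 in some of these fits. After priming the ranges were -0.11 to 0.42 for Tlr4, -0.16 to 0.075 for Irak4 and -0.17 to 0.11 for Ticam1. Between LPS-tolerant and LPS-stimulated cells Ticam2 ran from -0.47 to 0.070. Between LPS-tolerant and LPS-primed cells they were -0.077 to 0.91 for Cd14, -0.12 to 0.13 for Aoah, -0.031 to 0.12 for Myd88 and -0.17 to 0.0046 for Ticam1. With carboplatin in LPS-primed cells they were -0.53 to 0.080 for Ticam2, -0.075 to 0.36 for Tlr4, -0.017 to 0.14 for Myd88, -0.020 to 0.12 for Ticam1 and -0.14 to 0.051 for Irak4. In LPS-tolerant cells they were -0.24 to 0.64 for Cd14, -0.17 to 0.18 for Ly96 and -0.073 to 0.20 for Irak4. The difference between these states ran from -0.93 to 0.050 for Cd14, -0.22 to 0.031 for Aoah, -0.10 to 0.47 for Tirap, -0.035 to 0.46 for Tlr4, -0.033 to 0.14 for Ticam1 and -0.021 to 0.25 for Irak4. The second minus the first response ran from -0.10 to 0.42 for Tlr4 and -0.23 to 0.0096 for Irak4. Lbp, at 0 to 12 counts a library, did not pass the filter.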
